A study of Mus musculus with 12 samples.

Results

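Mitochondrial ribosomal protein genes were examined in sorted mouse cardiomyocytes (CMs) with and without the transcription factor gene Srf. The genes were chosen by name alone: every symbol in the count tables that reads Mrpl (large subunit) or Mrps (small subunit) followed by a number was taken, which gave 76 of the 23337 listed genes, 47 large and 29 small. All 76 were tested in every comparison, because each passed the filter on low counts. CTRL animals carried the genotype Srf-flox/+ and KO animals Srf-flox/flox, and both received the AAV9-cTNT-Cre virus, so that CTRL cells also lost the floxed copy that they carried. Neonatal CMs (P14_Ctrl and P14_KO) came from animals injected on postnatal day 1 and collected on day 14, and adult CMs (P90_Ctrl and P90_KO) from animals injected on day 60 and collected on day 90, with 3 libraries per group. Cre was driven by the cardiac troponin T promoter at a dose that reaches a minority of CMs, and the cells that entered the libraries were those in which Cre had switched on a fluorescent reporter. The study describes its sorted CMs as coming from separate hearts, whereas the labels only number the replicates, and p-values measure the spread between these libraries.

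The mitochondrial ribosome (mitoribosome) makes the few respiratory chain and ATP synthase subunits that are encoded by mitochondrial DNA. Its RNAs are made inside the organelle, whereas all of its proteins are encoded in the nucleus, made in the cytosol and imported. Some of these proteins have counterparts in bacterial ribosomes and others are found in mitochondria alone, and the heart, which depends on oxidative metabolism, holds them at high levels. A few symbols do not match the position of the protein: Mrps18a and Mrps30 sit in the large subunit, and Mrps36 is no stable part of the ribosome but a component of the 2-oxoglutarate dehydrogenase complex. With these moved, the lists held 49 large and 26 small subunit proteins, and 48 of the proteins had bacterial counterparts whereas 27 were mitochondria-specific.

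Library totals ranged from 9740389 to 23103460 counts. Srf was lower in KO at both stages, with 63.9, 57.1 and 49.4 CPM (counts scaled to the size of each library) in P14_Ctrl, 32.1, 27.5 and 9.74 in P14_KO, 71.1, 59.1 and 81.1 in P90_Ctrl, and 32.8, 28.9 and 28.1 in P90_KO. The fitted difference on the log2 scale was -1.30 ± 0.36 (SE) at P14, where it missed the threshold by the quasi-likelihood test of edgeR (adjusted p = 0.0628, and 0.00288 by DESeq2), and -1.23 ± 0.13 at P90 (adjusted p = 0.00347 by edgeR). Cardiomyocyte markers (Myh6, Tnnt2, Tnni3, Actn2, Ryr2 and Pln) were all present and summed to 57923 to 62937 CPM in P14_KO, below the 80285 to 89409 CPM of P14_Ctrl, and to 72019 to 75270 CPM in P90_KO against 81028 to 89904 CPM in P90_Ctrl. The 6 mural cell markers summed to 374 to 582 CPM in P14_KO and 941 to 1412 CPM in P14_Ctrl, and to 189 to 198 CPM in P90_KO and 268 to 412 CPM in P90_Ctrl. The 6 fibroblast markers summed to 168 to 300 CPM in P14_KO and 96.2 to 285 CPM in P14_Ctrl, and to 46.0 to 63.1 CPM and 45.1 to 63.6 CPM at P90. Endothelial markers (6 of 6 present) lay between 204 and 456 CPM in all groups and leukocyte markers (5 of 6 listed) between 4.45 and 12.5 CPM. The atrial markers spread widely within groups (74.1 to 518 CPM in P14_Ctrl and 315 to 1201 CPM in P14_KO). Of the erythroid markers (5 of 7 listed), Hba-a1, Hba-a2, Hbb-b1 and Hbb-b2 were at 0 in all libraries. How reads shared by near-identical copies were counted is not given, so these zeros do not show how much erythroid RNA was present. The erythroid sum, from the remaining marker, reached at most 2.39 CPM in P14_Ctrl, 1.15 CPM in P14_KO, 0.237 CPM in P90_Ctrl and 0.159 CPM in P90_KO. The part of these marker differences in the results was not tested. In RNA from sorted cells, fewer cells of a type, less RNA per cell and altered marker expression within cells cannot be told apart. The study reports lower Myh6, Tnni3 and Ryr2 and higher Actn2, Myl4 and Myl7 in neonatal KO, and these are among the markers summed. Reads on Y-linked genes marked 1 library in each group except P90_KO, which had 0, so the sexes were not balanced.

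The 76 genes lay on 17 chromosomes, with 10 on chromosome 11 and 0 on X or Y, and their median exon length was 1053 bases, against 2244 bases over all listed genes. Of the 76, 26 (34.2%) had another gene starting in the opposite direction within 1000 bases, against 9.73% of all genes. In 1 such pair both genes were members: Mrpl46 and Mrps11 lie head to head on chromosome 7, with 42 bases between their starts. Promoters (250 bases before to 50 bases after the start, RefSeq, GRCm38.p6, the same assembly as the mm10 of the files) were at hand for 67 members, and were not used here for Mrpl4, Mrpl13, Mrpl15, Mrpl19, Mrpl38, Mrpl54, Mrps28, Mrps34 and Mrps35. The windows follow the RefSeq start, which is not always the gene start listed with the counts. The largest offsets were 895 bases for Mrps21, -740 for Mrpl20, 310 for Mrps10 and 305 for Mrpl48.

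The following promoters are shown because Mrps27 and Mrpl9 had lower expression in neonatal KO, Mrpl33 had a fold change near 0, and Mrpl46 and Mrps11 start from a shared stretch between the genes of both subunits. Capitals mark the motifs searched on either strand: the ETS core CCGGAAG and the YY1 core AAGATGGC in Mrps27, the NRF1 core GCGCATGCG in Mrpl9 (a palindromic run that holds it once on each strand), the ETS core in Mrpl33, the SP1 core GGGCGG in both genes of the pair and the YY1 core in Mrps11.
Mrps27 (chr13:99344536-99344835, plus strand): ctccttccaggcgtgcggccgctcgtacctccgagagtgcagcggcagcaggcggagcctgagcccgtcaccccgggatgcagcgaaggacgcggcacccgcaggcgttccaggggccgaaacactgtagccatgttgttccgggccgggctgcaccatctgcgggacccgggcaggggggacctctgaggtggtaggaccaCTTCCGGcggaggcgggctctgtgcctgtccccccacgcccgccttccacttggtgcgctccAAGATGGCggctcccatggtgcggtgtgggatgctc
Mrpl9 (chr3:94443086-94443385, plus strand): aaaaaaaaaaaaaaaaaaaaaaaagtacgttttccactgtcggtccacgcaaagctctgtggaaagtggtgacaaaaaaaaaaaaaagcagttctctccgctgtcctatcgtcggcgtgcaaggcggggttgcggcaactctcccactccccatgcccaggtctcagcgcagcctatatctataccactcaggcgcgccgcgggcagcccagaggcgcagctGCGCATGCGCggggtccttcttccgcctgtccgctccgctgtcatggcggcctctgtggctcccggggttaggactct
Mrpl33 (chr5:31613701-31614000, plus strand): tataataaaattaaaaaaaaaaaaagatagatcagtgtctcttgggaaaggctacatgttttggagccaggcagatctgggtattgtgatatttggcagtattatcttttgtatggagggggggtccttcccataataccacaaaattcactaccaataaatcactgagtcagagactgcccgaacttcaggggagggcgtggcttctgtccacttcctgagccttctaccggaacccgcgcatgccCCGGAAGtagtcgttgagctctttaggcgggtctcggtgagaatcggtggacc
Mrpl46 (chr7:78783040-78783339, minus strand): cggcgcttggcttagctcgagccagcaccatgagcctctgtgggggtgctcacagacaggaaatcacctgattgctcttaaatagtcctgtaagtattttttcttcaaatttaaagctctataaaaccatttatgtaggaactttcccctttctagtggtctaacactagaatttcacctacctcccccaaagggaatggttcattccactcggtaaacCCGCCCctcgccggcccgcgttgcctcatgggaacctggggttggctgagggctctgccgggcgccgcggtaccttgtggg
Mrps11 (chr7:78782881-78783180, plus strand): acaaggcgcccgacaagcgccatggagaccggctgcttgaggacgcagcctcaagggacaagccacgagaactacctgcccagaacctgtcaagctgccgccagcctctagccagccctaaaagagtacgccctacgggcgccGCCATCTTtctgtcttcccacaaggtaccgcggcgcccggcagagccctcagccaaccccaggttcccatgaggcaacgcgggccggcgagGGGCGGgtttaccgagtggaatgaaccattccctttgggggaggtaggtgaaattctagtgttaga
The windows of Mrpl46 and Mrps11 overlap, and the single SP1 core of each is the same stretch of DNA read from opposite strands.

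ETS factors, NRF1 (nuclear respiratory factor 1) and YY1 are known regulators of nuclear genes for mitochondrial proteins. The ETS core was in 23 of the 67 member promoters (34.3%), against 9.24% of all 27025 promoters in the table and 18.5% of those of genes tested in neonatal CMs. The YY1 core was in 12 (17.9%, against 2.89% and 4.74%) and the NRF1 core in 7 (10.4%, against 1.82% and 3.87%). Of the 7 with the NRF1 core, 6 were large subunit genes, and the ETS core was in 12 of 41 large and 11 of 26 small subunit promoters. The SP1 core was in 33 (49.3%), more often than among all promoters (36.2%) and less often than among those of genes tested (66.5%), and the site AAGGTCA of estrogen-related receptors was in 4 (5.97%, against 4.63% and 2.82%). The CArG box, the site that SRF binds, was in 0 of the 67 windows, against 1.57% of all promoters, which says only that its letters are not in these windows. In neonatal KO the median log2 fold change was -0.48 for the 23 genes with the ETS core and -0.55 for the 44 without, -0.50 for the 12 with the YY1 core and -0.54 for the 55 without, and -0.42 for the 7 with the NRF1 core and -0.54 for the 60 without. The values are a description of these windows and were not tested.

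**Figure D1:**
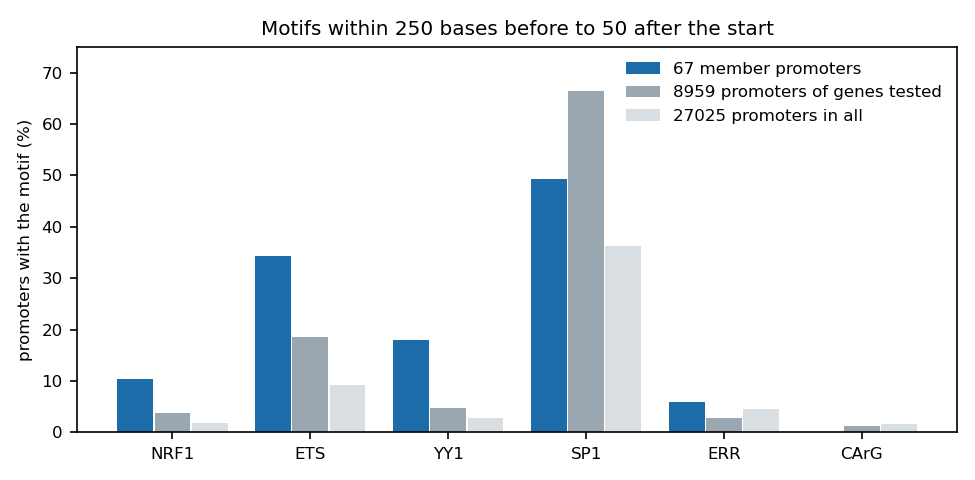
Share of promoters (percent, y axis) that hold each motif at least once on either strand, for 67 mitochondrial ribosomal protein genes, the 8959 promoters of genes tested in neonatal CMs and all 27025 promoters. ETS, YY1 and NRF1 cores were in 34.3%, 17.9% and 10.4% of member promoters, and the CArG box in 0.

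Per kilobase of exon, the 76 genes had a median level of 51.3 CPM per kb in P14_Ctrl, against 6.16 CPM per kb over all genes tested. Although the proteins are built into the same particle, the levels of their transcripts spanned a 70.5-fold range, from 8.18 CPM per kb to 577 CPM per kb. Among large subunit genes, the highest levels per length in P14_Ctrl were those of Mrpl42, a mitochondria-specific protein (577 ± 93.2 CPM per kb, SD, n = 3), Mrpl12, the counterpart of the bacterial stalk protein L7/L12 (257 ± 46.8), and Mrpl33 (218 ± 68.5). Mrpl12 and Mrpl33 overlapped in their spread, and Mrpl42 stood above both. The lowest were Mrpl19 (8.18 ± 1.17) and Mrpl17 (8.21 ± 1.43), which did not differ beyond their spread. Among small subunit genes, Mrps35 (119 ± 17.6), Mrps23 (108 ± 11.0) and Mrps28 (101 ± 24.5) were highest and overlapped in their spread, and Mrps33 (14.4 ± 4.56) and Mrps25 (9.43 ± 2.85) were lowest. The listed exons of Mrpl17, Mrpl19 and Mrps25 are much longer than those of most members, and a level per length takes all listed exon bases as transcribed.

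The mean level per length was 81.5 ± 14.1 CPM per kb over large and 56.6 ± 9.67 CPM per kb over small subunit genes in P14_Ctrl, but the medians lay in the opposite order (51.2 ± 7.86 and 56.1 ± 10.0 CPM per kb) and overlapped in their spread. In P14_KO, P90_Ctrl and P90_KO the medians of the large subunit genes were 36.2, 54.9 and 55.8 CPM per kb and those of the small subunit genes 39.3, 58.3 and 58.7 CPM per kb. The small subunit had the higher median in every library except P90_Ctrl replicate 2.

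In neonatal KO the transcripts of both subunits were lower than in CTRL. Summed over the 47 large subunit genes, the level was 3494, 4693 and 3677 CPM in the P14_Ctrl libraries and 2731, 2907 and 2629 CPM in the P14_KO libraries. Over the 29 small subunit genes it was 1570, 2058 and 1582 CPM in P14_Ctrl and 1187, 1251 and 1134 CPM in P14_KO. Every KO library lay below every CTRL library in both sums, and the mean of KO was 69.7% of CTRL for the large and 68.6% for the small subunit. P14_Ctrl replicate 2 stood above the other CTRL libraries, with the highest value of its group for 72 of the 76 genes.

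By edgeR, 29 of the 76 genes (38.2%) were down-regulated and 0 were up-regulated, whereas 4.60% of the 12546 genes tested were called lower and 3.99% higher. The 29 comprised 20 of 47 large subunit genes (42.6%) and 9 of 29 small subunit genes (31.0%), and the medians of the log2 fold change were -0.54 and -0.55, against 0.00 over all genes tested. After correction for gene length the medians were -0.42 for large and -0.35 for small subunit genes. DESeq2 called 48 of the 76 lower, among them all 29, against 8.18% of all genes. All of the 76 fitted values were at or below 0, the highest being that of Mrpl54 at 0.00, although 6 turned positive after correction for gene length and 7 when libraries were scaled by total counts. In 61 of the 76 genes all 3 KO libraries were below all 3 CTRL libraries, and in 0 were they all above, whereas 16.7% and 16.0% of all genes tested separated in these ways. The 29 called genes had log2 fold changes from -0.87 to -0.48 and adjusted p from 0.0131 to 0.0494, so the calls lie near the threshold. Without any single P14_KO library, 0 or 1 of the 76 were called, although the median stayed between -0.56 and -0.48, and the calls over all genes fell from 1078 to between 111 and 202. Without P14_Ctrl replicate 2, 24 were called and the median was -0.36, with 1004 calls over all 12796 genes tested.

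**Figure D2:**
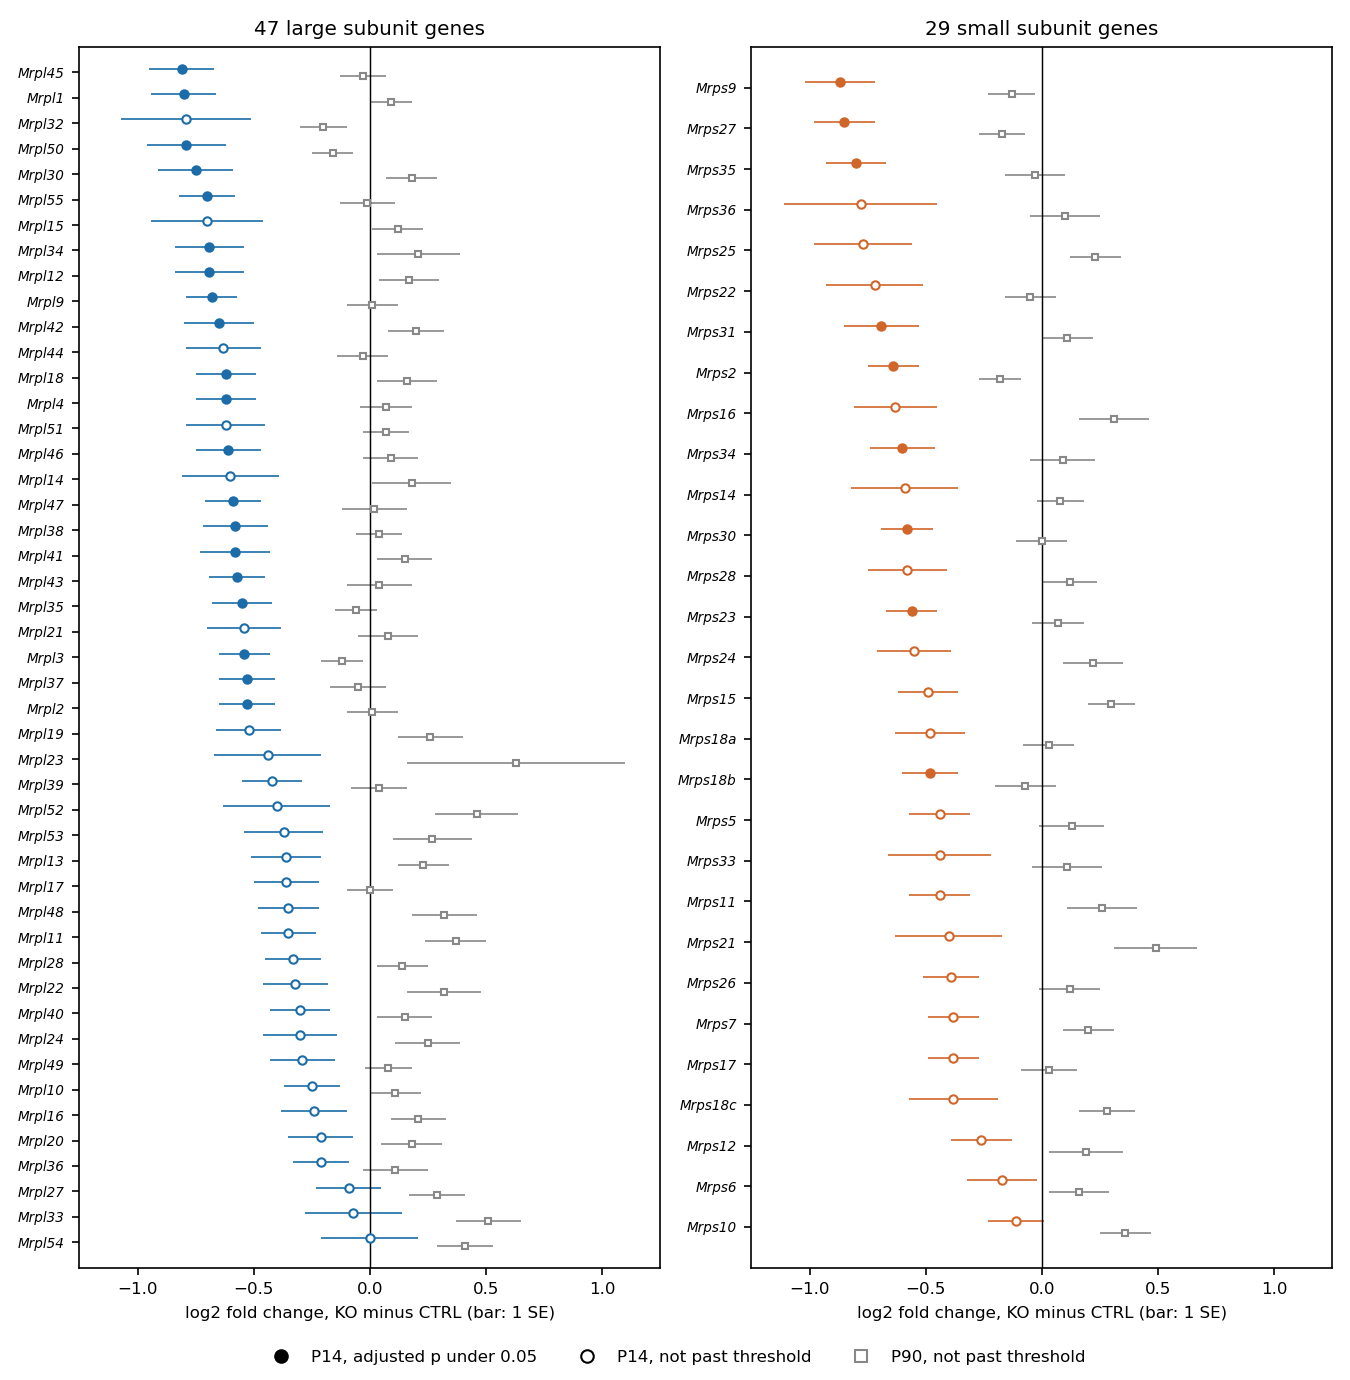
Log2 fold change (x axis, KO minus CTRL, with 1 SE) of each large (left) and small (right) subunit gene in neonatal CMs (circles, filled where the edgeR adjusted p was under 0.05) and adult CMs (squares). The neonatal values run from -0.87 (Mrps9) to 0.00 (Mrpl54), and the adult values lie on both sides of 0 with 0 calls.

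Among large subunit genes, the largest changes that passed the test were those of Mrpl45, Mrpl1, Mrpl50 and Mrpl30. Mrpl45 (chr11:97315716-97329920, mm10, 8 exons), which lies at the exit of the peptide tunnel and ties the ribosome to the inner membrane, had 90.5, 125 and 111 CPM in P14_Ctrl and 59.7, 66.7 and 60.1 CPM in P14_KO, with a log2 fold change of -0.81 ± 0.14 (SE) and an adjusted p of 0.0153 by edgeR. Mrpl1 (chr5:96210115-96266709), the counterpart of the bacterial L1 stalk protein, had 52.9, 72.7 and 62.6 CPM in P14_Ctrl and 34.6, 38.9 and 35.1 CPM in P14_KO (-0.80 ± 0.14, adjusted p = 0.0163). In neither gene did the groups overlap. Mrpl50 (chr4:49512597-49521083), a mitochondria-specific protein, had 52.7, 82.6 and 62.2 CPM against 41.4, 37.0 and 36.4 CPM (-0.79 ± 0.17, adjusted p = 0.0281). Mrpl30 (chr1:37890553-37898333), the counterpart of bacterial L30, had 132, 177 and 117 CPM against 88.9, 89.6 and 76.0 CPM (-0.75 ± 0.16, adjusted p = 0.0297). Here too all KO libraries were lower, and P14_Ctrl replicate 2 was the highest of its group in all 4 genes.

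Among small subunit genes, the largest changes that passed were those of Mrps9, Mrps27, Mrps35 and Mrps31. Mrps9 (chr1:42851233-42905683), the counterpart of bacterial S9, had 74.6, 98.0 and 76.6 CPM in P14_Ctrl and 45.9, 51.0 and 39.5 CPM in P14_KO (-0.87 ± 0.15, adjusted p = 0.0153), the lowest fold change of all members. Mrps27 (chr13:99344786-99415561), a protein of the pentatricopeptide repeat (PPR) family that binds RNA, had 50.8, 69.1 and 61.7 CPM against 33.6, 34.7 and 32.5 CPM (-0.85 ± 0.13, adjusted p = 0.0132), and 314 bases of its exons are also listed for 6430562O15Rik. In both genes all KO libraries were below all CTRL libraries. Mrps35 (chr6:147042770-147070902) had 113, 149 and 120 CPM against 71.5, 77.8 and 70.2 CPM (-0.80 ± 0.13, adjusted p = 0.0137), and Mrps31 (chr8:22411340-22429665) had 46.1, 67.4 and 56.9 CPM against 35.7, 38.3 and 31.7 CPM (-0.69 ± 0.16, adjusted p = 0.0318). Both are mitochondria-specific, and in neither did the groups overlap.

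A few members showed little difference. Mrpl54 had 42.6, 63.4 and 33.6 CPM in P14_Ctrl and 48.0, 48.9 and 43.0 CPM in P14_KO, and its means were 46.5 ± 15.3 and 46.6 ± 3.19 CPM (SD, n = 3). Mrpl33 had 94.1, 136 and 73.9 CPM against 100, 102 and 88.8 CPM (-0.07 ± 0.21, adjusted p = 0.882). The KO libraries of both genes lay within the range of the CTRL libraries, in which replicate 2 was again the highest. Mrps10, with 29.3, 33.4 and 28.0 CPM against 26.2, 30.8 and 27.4 CPM (-0.11 ± 0.12, adjusted p = 0.653), and Mrps6, with 39.2, 52.8 and 39.2 CPM against 35.4, 44.4 and 37.5 CPM (-0.17 ± 0.15, adjusted p = 0.555), overlapped between groups as well. At the other end, Mrpl32 had a fold change of -0.79 ± 0.28, as large as that of Mrpl50, but did not pass the test (adjusted p = 0.125). The SE of Mrpl54 and Mrpl33 was 0.21, above the median of 0.14 over all members.

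Placed by structure rather than by symbol, 21 of 49 large and 8 of 26 small subunit genes were down-regulated, with medians of -0.54 and -0.52. Mrps30, which belongs to the large subunit, passed the test (62.5, 67.0 and 69.6 CPM against 48.4, 45.1 and 39.9 CPM, -0.58 ± 0.11, adjusted p = 0.0214), and Mrps18a (66.8, 91.8 and 67.8 CPM against 57.3, 55.5 and 50.1 CPM, -0.48 ± 0.15, adjusted p = 0.0820) did not. Its paralogs Mrps18b (-0.48 ± 0.12, adjusted p = 0.0410) and Mrps18c (-0.38 ± 0.19, adjusted p = 0.253) gave fold changes of like size. Mrps36 had 21.3, 38.4 and 15.4 CPM against 14.5, 18.6 and 10.8 CPM (-0.78 ± 0.33, adjusted p = 0.183), with the largest SE of all members. Of the genes with bacterial counterparts, 15 of 48 were down-regulated (median -0.48), and of the mitochondria-specific genes 14 of 27 (median -0.58). Within the small subunit these were 3 of 17 (median -0.44) and 5 of 9 (median -0.69), and within the large subunit 12 of 31 (median -0.53) and 9 of 18 (median -0.57). The difference between these families was not tested.

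Of the 9 members whose exons overlap those of another gene, 2 were among the 29 called, Mrpl41 and Mrps27, and the other 67 members had a median of -0.55 with 27 called. Members with a divergent neighbor had a median of -0.56 (11 of 26 called) and those without one -0.53 (18 of 50 called). Of the 24 neighbors that are not members, 21 were tested, with a median of -0.11 and 3 called lower. Ptcd2, which encodes another PPR protein and starts 108 bases from Mrps27, had 63.8, 78.1 and 80.6 CPM in P14_Ctrl and 42.1, 41.8 and 42.0 CPM in P14_KO (-0.83 ± 0.12, adjusted p = 0.0108). The others called were Ndufb5, a subunit of complex I next to Mrpl47 (-0.58 ± 0.14, adjusted p = 0.0420, and -0.59 for Mrpl47), and Peo1, the mitochondrial DNA helicase next to Mrpl43 (-0.51 ± 0.12, adjusted p = 0.0383, and -0.57 for Mrpl43). In the pair of Mrpl46 and Mrps11, Mrpl46 was called (45.2, 63.1 and 58.1 CPM against 34.9, 38.6 and 36.2 CPM, -0.61 ± 0.14, adjusted p = 0.0360), and Mrps11 was lower in all KO libraries (27.4, 36.1 and 31.5 CPM against 22.6, 23.5 and 23.8 CPM) without passing the test (-0.44 ± 0.13, adjusted p = 0.0773).

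Adult KO gave 0 calls among the 76 genes in either direction by edgeR, with 1 call (Mrpl33, higher) by DESeq2, which called 343 of the 11808 genes tested. At an unadjusted p under 0.05 there were 10 of the 76, a smaller share than the 1910 of 11808 over all genes tested. Over all genes tested, 0.152% were called lower and 0.237% higher by edgeR at this stage. The summed level was 4658, 3962 and 4488 CPM in P90_Ctrl and 5295, 4702 and 4190 CPM in P90_KO for the large subunit, and 1966, 1690 and 1897 CPM against 2206, 1969 and 1751 CPM for the small subunit. The groups overlapped in both sums, and KO was 108% and 107% of CTRL. The medians of the log2 fold change were 0.12 for large and 0.11 for small subunit genes, against 0.01 over all genes, and 61 of the 76 values were positive. After correction for gene length the median over the 76 was -0.04, with 46 values negative, so the direction in adult KO depended on that correction. In 5 genes all KO libraries were below all CTRL libraries and in 5 they were all above, and these shares did not exceed those of all genes (11.2% and 10.4%). SEs ranged from 0.09 to 0.47 with a median of 0.12, against a median neonatal change of -0.54.

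The 8 genes with the largest called changes in neonatal KO had adult values from -0.17 (Mrps27) to 0.18 (Mrpl30), and 0 of them passed the test. Mrpl45 had 137, 130 and 144 CPM in P90_Ctrl and 149, 135 and 119 CPM in P90_KO (-0.03, adjusted p = 0.921), and Mrpl1 had 61.7, 61.7 and 66.3 CPM against 65.6, 67.2 and 68.1 CPM (0.09, adjusted p = 0.673). Mrps9 had 91.1, 93.6 and 93.7 CPM against 95.4, 79.3 and 78.3 CPM (-0.13, adjusted p = 0.560), and Mrps27 had 76.2, 74.9 and 77.3 CPM against 73.9, 62.6 and 65.9 CPM (-0.17, adjusted p = 0.409). Mrpl50 had 99.7, 109 and 98.9 CPM against 94.1, 89.8 and 89.9 CPM (-0.16, adjusted p = 0.399), and Mrpl30 had 198, 181 and 200 CPM against 251, 205 and 199 CPM (0.18, adjusted p = 0.446). Of these 6 genes, Mrps27 and Mrpl50 had every KO library below every CTRL library, and the groups of the other 4 overlapped. Of the members with little difference in neonatal KO, Mrpl33 had 120, 84.0 and 106 CPM against 158, 159 and 123 CPM (0.51, adjusted p = 0.130), and Mrpl54 had 54.7, 46.6 and 47.5 CPM against 74.7, 63.2 and 58.9 CPM (0.41, adjusted p = 0.137). In both, every KO library was above every CTRL library, and after correction for gene length the values were 0.22 and 0.15. Mrps10 (0.36, adjusted p = 0.160) and Mrps6 (0.16, adjusted p = 0.568) were at 0.22 and -0.06 after that correction. The highest adult value, that of Mrpl23 (0.63, adjusted p = 0.546), came with 1.74 CPM in P90_Ctrl replicate 2, the library with the fewest counts, beside 18.0 and 17.4 CPM in the other P90_Ctrl libraries and 17.7 to 21.9 CPM in P90_KO.

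The adult values varied with transcript length. Across the 76 genes, Spearman's rho between exon length and the adult log2 fold change was -0.52, close to the -0.43 found over all 11808 genes tested, and the median was 0.18 for the 37 members with exons shorter than 1053 bases and 0.07 for the other 39. In neonatal KO the rho was -0.27 across members but 0.19 across the 12546 genes tested, so that the correction for gene length, which brought the rho over all genes to -0.02, left one of -0.64 across members. For the difference between stages the rho across members went from 0.11 to -0.64 with the correction. The neonatal medians without it were -0.48 for the shorter and -0.57 for the longer members. These values are descriptions, since genes of one set of libraries are not independent.

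**Figure D3:**
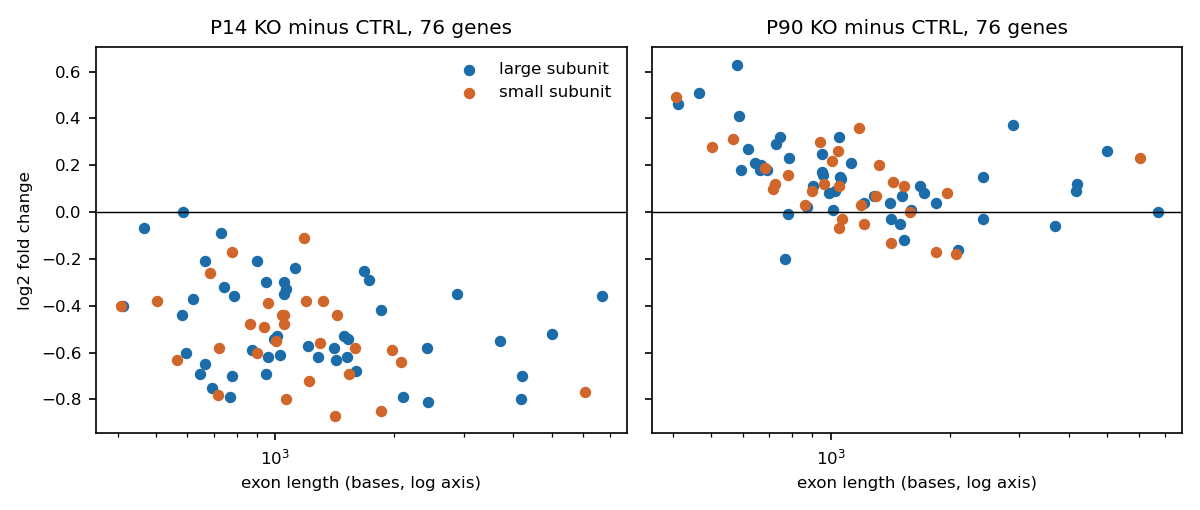
Log2 fold change (y axis, KO minus CTRL) of the 76 genes against exon length (x axis, bases, log scale) in neonatal (left) and adult (right) CMs, with large subunit genes in blue and small subunit genes in orange. The neonatal points lie at or below 0 at all lengths, and the adult points fall from about 0.5 among the shortest genes toward 0.

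The difference between stages was tested as the neonatal minus the adult KO effect, which shares its libraries with both comparisons. The stages also differed in the day of injection (1 or 60) and in the time from injection to collection. Age cannot be told apart from these. It was below 0 in all 76 genes, with medians of -0.61 for large and -0.66 for small subunit genes against -0.01 over all genes tested, although 7 of the 76 values turned positive after correction for gene length. By edgeR, 7 members passed the test as lower (5 large and 2 small) and 0 as higher, against 0.958% and 0.818% of the 12841 genes tested. DESeq2 called 39 of the 76, against 4.73% of all genes. The count was 17 without P14_Ctrl replicate 1, 11 without P14_Ctrl replicate 3, 14 without P90_KO replicate 3 and 0 to 2 without any other single library, while the median stayed between -0.72 and -0.46. Calls over all genes, in both directions, went from 228 to 377, 349 and 278 in the fits with 17, 11 and 14 members. In the other fits they were between 4 and 137. The 7 members were Mrpl30 (-0.92 ± 0.20, adjusted p = 0.0454), Mrpl1 (-0.88 ± 0.16, adjusted p = 0.0222), Mrpl42, Mrpl45, Mrpl9, Mrps15 and Mrps27, and all but Mrps15 were also among the 29 called in neonatal KO.

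Mrpl42, the most abundant member per length, had 341, 455 and 356 CPM in P14_Ctrl, 259, 262 and 214 CPM in P14_KO, 480, 395 and 443 CPM in P90_Ctrl and 573, 506 and 434 CPM in P90_KO, a difference between stages of -0.85 ± 0.20 (adjusted p = 0.0492 by edgeR). Mrps15, the counterpart of bacterial S15, had 57.1, 73.5 and 57.5 CPM, 42.9, 46.2 and 45.3 CPM, 68.3, 61.9 and 64.1 CPM, and 84.3, 82.8 and 72.3 CPM in the same order (-0.78 ± 0.16, adjusted p = 0.0296). Both were lower in all KO libraries at P14, and at P90 Mrps15 was higher in all KO libraries while Mrpl42 overlapped. Mrpl9, whose promoter holds the NRF1 core, had 72.8, 78.4 and 84.8 CPM in P14_Ctrl, 46.9, 48.6 and 51.8 CPM in P14_KO, 90.7, 82.8 and 80.3 CPM in P90_Ctrl and 96.3, 85.2 and 73.7 CPM in P90_KO (-0.69 ± 0.15, adjusted p = 0.0453). It had the lowest adjusted p of all members in neonatal KO (0.0131), and at P90 its groups overlapped. Mrpl45 (-0.77 ± 0.17, adjusted p = 0.0453) and Mrps27 (-0.67 ± 0.16, adjusted p = 0.0497) completed the set.

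Between P14 and P90, CTRL cells showed few changes in these genes. These groups also differed in the day of injection (1 or 60) and in the time from injection to collection, which cannot be told apart from age. By edgeR, 4 of the 76 were higher at P90 and 0 lower, whereas 14.5% and 14.9% of the 12294 genes tested were called in these directions. The medians were 0.11 for large and 0.07 for small subunit genes, and the median over the 76 was -0.01 when libraries were scaled by total counts. Mrpl50 rose from 52.7, 82.6 and 62.2 CPM to 99.7, 109 and 98.9 CPM (0.64, adjusted p = 0.0160), and Mrpl55 from 93.9, 118 and 96.1 CPM to 167, 138 and 155 CPM (0.58, adjusted p = 0.00941). Mrpl28 rose from 140, 185 and 163 CPM to 225, 199 and 246 CPM (0.46, adjusted p = 0.0307), and Mrps23 from 128, 156 and 137 CPM to 195, 170 and 188 CPM (0.40, adjusted p = 0.0309). None of the 4 overlapped between ages. Without P14_Ctrl replicate 2, 20 of the 76 were called higher, while the calls over all genes, in both directions, went from 3607 of 12294 to 4768 of 12490. Without P14_Ctrl replicate 1, P90_Ctrl replicate 1, P14_Ctrl replicate 3 or P90_Ctrl replicate 3, 1 or 2 were called. The calls over all genes fell as well, to 2300 of 12334 without P14_Ctrl replicate 1 and 3094 of 12656 without P14_Ctrl replicate 3.

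Most of the same genes were higher in P90_KO than in P14_KO, in a comparison that uses the P14_KO libraries of the neonatal contrast again. P14_KO animals were injected on day 1 and P90_KO animals on day 60. Age and the timing of Srf loss therefore cannot be told apart. From P14_KO to P90_KO, 46 of 47 large and 27 of 29 small subunit genes were called higher and 0 lower, with medians of 0.67 and 0.70, against 27.7% called higher and 29.1% called lower of the 12417 genes tested. The summed levels of P90_KO were 172% and 166% of those of P14_KO for the large and small subunit, and in CTRL they were 110% and 107%. The members that did not pass were Mrpl47 (0.30, adjusted p = 0.0681), Mrps10 (0.28, adjusted p = 0.0551) and Mrps17 (0.14, adjusted p = 0.286).

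The balance of the subunits changed little. The summed level of large over small subunit genes, in which the scaling of a library cancels, was 2.23, 2.28 and 2.32 in P14_Ctrl, 2.30, 2.32 and 2.32 in P14_KO, 2.37, 2.34 and 2.37 in P90_Ctrl and 2.40, 2.39 and 2.39 in P90_KO. On the log2 scale the means were 1.187 ± 0.031, 1.211 ± 0.007, 1.239 ± 0.008 and 1.259 ± 0.003 (SD, n = 3). KO exceeded CTRL by 0.024 at P14, where the groups overlapped, and by 0.021 at P90, where they did not. All P90 libraries lay above all P14 libraries. These values were not tested, and the P90 difference was between 0.009 and 0.034 with other ways of forming the ratio.

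**Figure D4:**
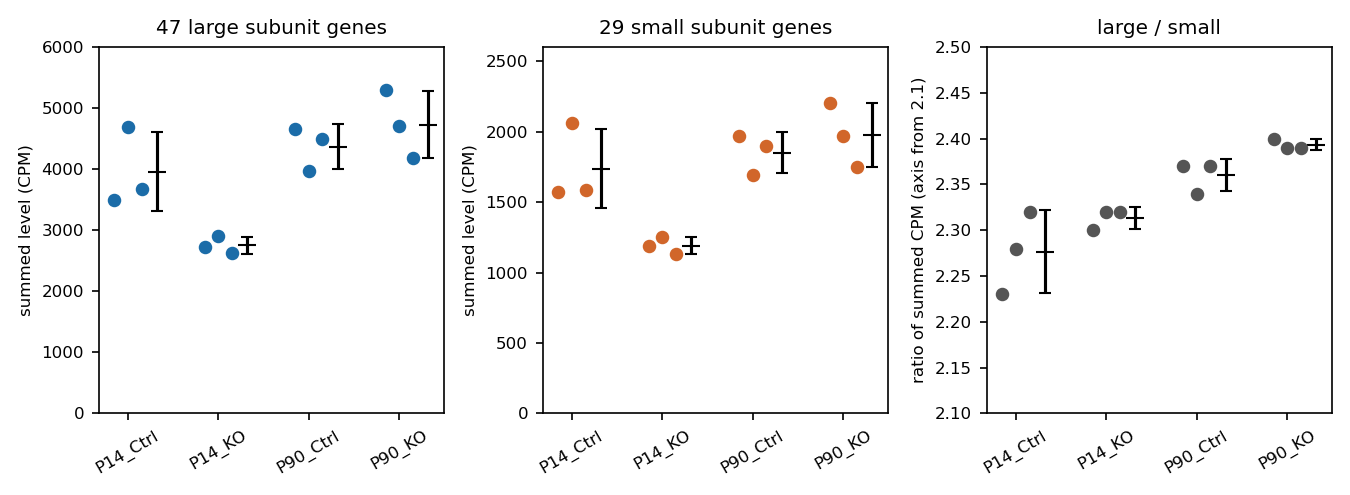
Summed level (CPM, y axis) of the 47 large (left) and 29 small (middle) subunit genes and the ratio of these sums (right, axis from 2.1) in each library, with the mean and SD of each group of 3. All P14_KO libraries lie below all other libraries in both sums, whereas the ratio spans 2.23 to 2.40 over the 12 libraries.

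Other genes of mitochondrial translation were read from the same fits, and the counts given are of genes tested. Of 6 mitoribosomal proteins that carry other names, 2 were down-regulated in neonatal KO (median -0.39), among them Ptcd3, a PPR protein of the small subunit (159, 210 and 208 CPM against 116, 123 and 102 CPM, -0.76 ± 0.14, adjusted p = 0.0189). Its KO libraries were below all CTRL libraries. Of 18 translation factors and associated proteins, 6 were down-regulated (median -0.52), among them Tufm, the mitochondrial elongation factor Tu (196, 236 and 222 CPM against 144, 133 and 124 CPM, -0.71 ± 0.12, adjusted p = 0.0149), Lrpprc, which stabilizes mitochondrial mRNAs (291, 316 and 367 CPM against 226, 183 and 195 CPM, -0.69 ± 0.13, adjusted p = 0.0216), and Oxa1l, which inserts new proteins into the inner membrane (-0.62 ± 0.10, adjusted p = 0.0150, overlapping Slc7a7 in its exons). Rmnd1 had the largest fold change of the list (-1.89 ± 0.42, adjusted p = 0.0318) but was near the detection limit, with at most 1.10 CPM in any library at P14, and shares exon bases with Gm5512.

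Of 21 mitochondrial aminoacyl-tRNA synthetases and related enzymes, 5 were down-regulated (median -0.34), with the largest changes among those called in Qrsl1, a subunit of the enzyme that makes glutaminyl-tRNA (50.1, 69.2 and 63.3 CPM against 38.0, 39.5 and 35.8 CPM, -0.69 ± 0.14, adjusted p = 0.0230), followed by the synthetases Yars2 (-0.65 ± 0.14, adjusted p = 0.0297), Rars2 (-0.55 ± 0.14, adjusted p = 0.0444) and Nars2 (-0.51 ± 0.13, adjusted p = 0.0444). In all 4 the KO libraries were below all CTRL libraries. Of 25 genes of mitoribosome assembly and rRNA modification, 4 were (median -0.41), among them Tfb1m, the methyltransferase of the small subunit rRNA (8.91, 9.40 and 10.2 CPM against 5.69, 5.16 and 5.81 CPM, -0.78 ± 0.17, adjusted p = 0.0284, with exon bases shared with Tiam2), Rnmtl1, which methylates the large subunit rRNA (29.3, 44.0 and 39.3 CPM against 21.6, 22.7 and 21.5 CPM, -0.78 ± 0.16, adjusted p = 0.0248), Fastkd2 (-0.54 ± 0.11, adjusted p = 0.0252) and the GTPase Mtg1 (-0.47 ± 0.12, adjusted p = 0.0444, overlapping Sprn). Of 8 genes of mitochondrial transcription and DNA maintenance, 3 were (median -0.33): Mterfd3 (-0.66 ± 0.14, adjusted p = 0.0255), Peo1 with the value given above, and Tfam, which packages mitochondrial DNA and starts its transcription (44.0, 52.9 and 50.2 CPM against 37.7, 36.2 and 34.1 CPM, -0.45 ± 0.11, adjusted p = 0.0479). The KO libraries of Tfam did not overlap with CTRL. In each of these 5 lists 0 genes were up-regulated in neonatal KO, and in adult KO 0 were called in either direction by edgeR, with 3 of 6, 0 of 18, 1 of 21, 2 of 25 and 1 of 8 genes at an unadjusted p under 0.05, in the order given here, against 1910 of 11808 over all genes. For comparison, 11 of 35 complex I subunit genes were down-regulated in neonatal KO (median -0.67), and of 80 genes for cytosolic ribosomal proteins 1 was (median -0.17). In P14_Ctrl the cytosolic list summed to 3418 ± 710 CPM (SD), below the 5692 ± 923 CPM of the 76 mitoribosomal genes. How reads shared with near-identical copies were counted is not given, which limits this comparison. In adult KO the cytosolic ribosomal protein genes had a median of 0.38, above the 0.11 of the 76 mitoribosomal genes, with 0 called by edgeR and 52 of 80 at an unadjusted p under 0.05, again against 1910 of 11808 over all genes. These adult values are without the correction for gene length, which moved the median of the 76 to -0.04.

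**Figure D5:**
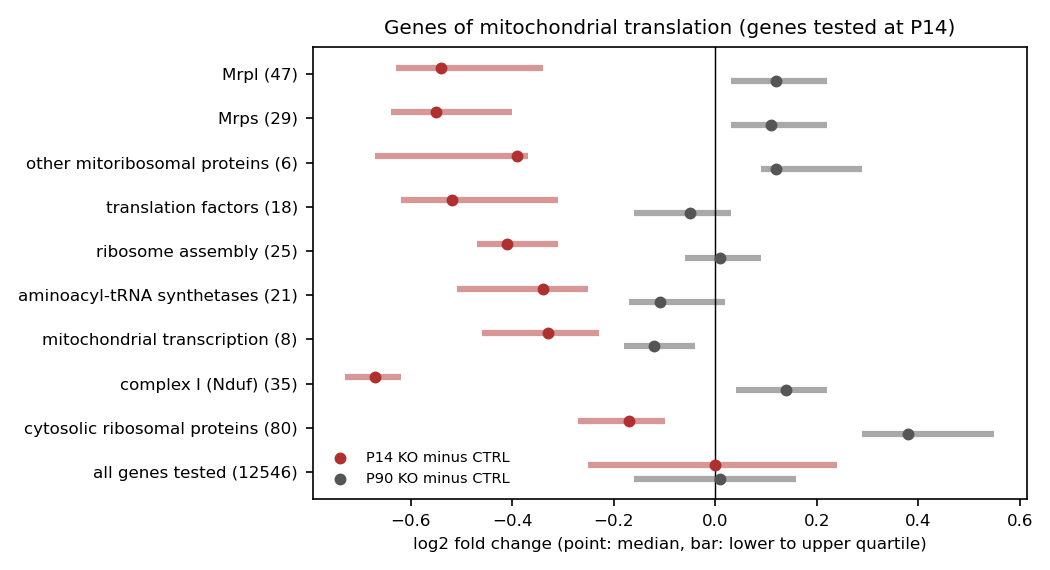
Median (points) and the span from the lower to the upper quartile (bars) of the log2 fold change (x axis, KO minus CTRL) for the mitoribosomal genes, other genes of mitochondrial translation and comparison lists, in neonatal (red) and adult (grey) CMs, with the number of genes tested at P14 in brackets. Neonatal medians were -0.54 and -0.55 for the Mrpl and Mrps genes, -0.67 for complex I, -0.17 for cytosolic ribosomal proteins and 0.00 for all genes.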

How the data were processed

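RNA-seq of FACS-sorted CMs was analysed in 12 libraries, 3 for each of P14_Ctrl, P14_KO, P90_Ctrl and P90_KO, as grouped in the labels. Per the study's methods and the submitters' processing notes, the authors amplified polyA RNA with the SMART-Seq v4 and Nextera XT kits, sequenced single-end reads, aligned them to mm10 with STAR 2.5.3a and counted them per gene with featureCounts (Subread 1.5.2). The deposited values are raw counts, and the strand and multimapping settings are not given in the sources used here, so reads of overlapping genes and near-identical copies cannot be told apart.

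Counts were tested with edgeR 4.0.16 (R 4.3.3; filterByExpr, TMM, quasi-likelihood F-test, Benjamini-Hochberg adjustment over all genes tested, threshold 0.05), with a separate fit for each comparison and all 12 libraries in the interaction. SEs were taken from the fold change and the F statistic. Printed CPM are counts divided by the library total after scaling by TMM factors over all libraries, per kilobase of the listed exon length where so named. Fits were checked on simulated data. Alternatives were DESeq2 1.42.0, other scalings, no filter, a replicate block, a correction for gene length (a lowess trend of log2 values on log2 exon length, span 0.4), all 12 libraries in one fit and leaving out each library. Deviations from group means correlated positively in every same-numbered pair, though weakly in some (0.0740, 0.152 and 0.394 in neonatal and 0.271, 0.0233 and 0.0842 in adult samples). The labels do not state pairs, so the main fits held no replicate block, and whether the numbers mark pairs was not settled. Between libraries of unlike number the correlations ran from -0.257 to 0.145 in neonatal and from -0.332 to 0.217 in adult samples. Counts with a replicate block are given below. The members and gene lists were chosen with earlier results of these data known. Genes named with values were Srf, the 4 called members per subunit with the largest change in each KO comparison and the interaction, the 2 per subunit with the smallest neonatal change, the 3 highest and 3 lowest called members per subunit in CTRL maturation, the 3 highest and 2 lowest per length, Mrps18a, Mrps30, Mrps36 and up to 4 called genes of each further list, of which 1 is not reported here. Mrpl9, Mrpl23, Mrpl32, the divergent neighbors and the printed promoters were chosen after their values were seen. Depth limits precision through counting error: 3 counts correspond to 0.130 to 0.308 CPM.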

Additional observations from a re-analysis of the deposited data

Results flagged for a closer look

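The effect of Srf KO differed between the neonatal and the adult model in 7 of the 76 mitochondrial ribosomal protein genes, by the interaction term of edgeR over all 12 libraries (adjusted p under 0.05). Over all genes tested, 0.958% were called lower and 0.818% higher. The models differ in age, day of injection and time since injection, which cannot be told apart. The neonatal minus the adult log2 fold change was -0.92 for Mrpl30, -0.88 for Mrpl1, -0.85 for Mrpl42, -0.78 for Mrps15, -0.77 for Mrpl45, -0.69 for Mrpl9 and -0.67 for Mrps27. Adjusted p ranged from 0.0222 (Mrpl1) to 0.0497 (Mrps27), and the neonatal effect was negative in all 7. Groups of 3 libraries are too small for the test for single outlying libraries, which was not run.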

How the results depend on the processing

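Alternatives are given for the 76 genes together. Of the neonatal calls (29 lower), DESeq2 gave 48, all 12 libraries in one fit 46 and total counts without a scaling factor 15, the last with a median of -0.32 against 0.22 over all genes. Calls over all genes, in both directions, went from 1078 to 1832, 2088 and 1724 in these fits. In the 8 neonatal fits with all libraries, 15 genes were called in each. The adult count (0) became 1 by DESeq2, 6 without a filter and 4 with the replicate block, all higher, and the length correction moved the adult median from 0.11 to -0.04. Over all genes, the adult calls went from 46 to 343 by DESeq2, 701 without a filter and 655 with the replicate block. The interaction count (7) became 12 with DESeq2 size factors, 39 by DESeq2, 4 with the length correction, 23 without a filter, 33 with the replicate block and 3 with total counts, and its median (-0.63) became -0.36 with the length correction and -0.44 with total counts. In the same order of fits, the interaction calls over all genes went from 228 to 279, 916, 206, 474, 687 and 259. In CTRL maturation the count (4) became 9 with the length correction and 2 with the replicate block, and the median turned from 0.11 to -0.01 with total counts. Calls over all genes went from 3607 to 3847 with the length correction and 3139 with the replicate block. For P90_KO against P14_KO, the median (0.69) became 0.45 with the length correction (54 calls) and 0.40 with total counts (51 calls). The calls over all genes in these fits are not given here, so the lower counts cannot be read as particular to the 76 genes. The replicate block gave 42 neonatal calls, with 1529 over all genes. The adult difference in the log2 ratio of large to small subunit sums (0.021) was 0.011 by structural subunit, 0.034 as a mean over genes and 0.009 without overlapping genes. The cause of these shifts was not tested.

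Leaving out 1 library at a time gave 0 to 28 calls (median -0.61 to -0.36) in neonatal KO, 0 to 0 (0.03 to 0.19) in adult KO and 0 to 17 (-0.72 to -0.46) in the interaction. It gave 1 to 20 (0.01 to 0.20) in CTRL maturation and 69 to 74 (0.63 to 0.77) in P90_KO against P14_KO. The log2 ratio differed by 0.008 to 0.039 in neonatal and by 0.016 to 0.024 in adult KO. With 3 libraries per group, differences of over 2 SEs could still miss the threshold (Mrpl32, -0.79 ± 0.28).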
